A study of Mus musculus with 7 samples.

Results

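The respiratory chain assembly factors are proteins that build the 5 complexes of oxidative phosphorylation without staying in them, and 38 of their genes were compared here between hearts of double knockout mice and hearts of wild type mice. Members were found by their gene name on the array. They carried 81 of the 56605 non-control probes, and the brightest probe on average stood for each gene. All 38 were among the 22844 genes tested. By the complex they serve, 13 belong to complex I, 2 to complex II, 5 to complex III, 15 to complex IV and 3 to complex V.

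Messenger RNA was measured with one-colour Agilent arrays in 7 heart samples, all from adult female mice given tamoxifen, an oestrogen receptor ligand that switches on an inducible Cre recombinase. The knockout group (4 samples: Mutant_175, Mutant_182, Mutant_187, Mutant_188) is labelled as transgenic and as lacking both Brg1 and Brm, the alternative ATPases of the SWI/SNF chromatin remodelling complex. Brg1 had been deleted by MHC Cre-ERT, a Cre driven by a myosin heavy chain promoter of heart muscle cells, in mice that were already Brm null. The wild type group (3 samples: Wild Type_181, Wild Type_183, Wild Type_189) is labelled as non-transgenic, and no source used here gives its Brm status or the strain of either group. The labels call the cells cardiomyocytes but give only a tissue RNA kit, with no step that isolates cells. They do not say that each sample was 1 animal, so a p-value here covers only sample-to-sample spread, which may be technical.

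Electrons from nutrients pass through complexes I to IV in the inner mitochondrial membrane, and complex V uses the resulting proton gradient to make ATP, of which the beating heart needs a steady supply. Each complex joins many subunits with iron-sulphur clusters, flavin, heme or copper, and assembly factors chaperone part-built modules, insert these cofactors and then leave. In humans, inherited loss of many of these factors causes mitochondrial disease, often with cardiomyopathy.

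Brg1 (Smarca4) was lower in every knockout array. Its signal, as a multiple of the 75th percentile of the array, was 5.87, 10.3, 14.9 and 8.25 in the knockout arrays, against 34.7, 32.8 and 34.2 in the wild type arrays (log2 fold change -1.87 ± 0.29, adjusted p = 0.00208). Array values throughout are such multiples, in the array order given above. A fold change is followed by its SE from a limma fit to the 4 knockout and 3 wild type arrays. This SE pools both groups and draws partly on the spread of all genes tested. Brm (Smarca2) was at 2, 2.21, 1.89 and 2.01 in the knockout arrays, against 2.04, 1.82 and 1.9 in the wild type arrays (log2 fold change 0.08 ± 0.11, adjusted p = 0.586). Its probe therefore does not separate the groups, and no source used here says whether it lies in the part of Brm that was removed. All 7 arrays were on 1 slide and scanned together. The wild type arrays lay in its first row and the knockout arrays in its second, so slide row and genotype cannot be told apart.

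Most assembly factors were lower in the knockout hearts. Of the 38, 27 were lower and 1, Coa5, was higher (limma, Benjamini-Hochberg adjusted over all 22844 genes, threshold 0.05), whereas 25.8% of all genes were lower and 16.4% higher. The other 10 did not pass the test. The fold change was negative for 34 of 38, and its median was -0.62 on the log2 scale, against -0.12 over all genes tested. The groups did not overlap, with knockout lower, for 28 members, which is the case for 31.7% of all genes, and did not overlap with knockout higher for 1, the case for 19.6% of all genes. The wild type level of a lower member was 1.27 to 3.51 times its knockout level, and 5 members were lower by at least 2-fold. These 5 were Ndufaf4, Nubpl, Atpaf1, Tmem70 and Ndufaf6. All 38 members were well above background on all 7 arrays, and none was saturated.

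**Figure D1:**
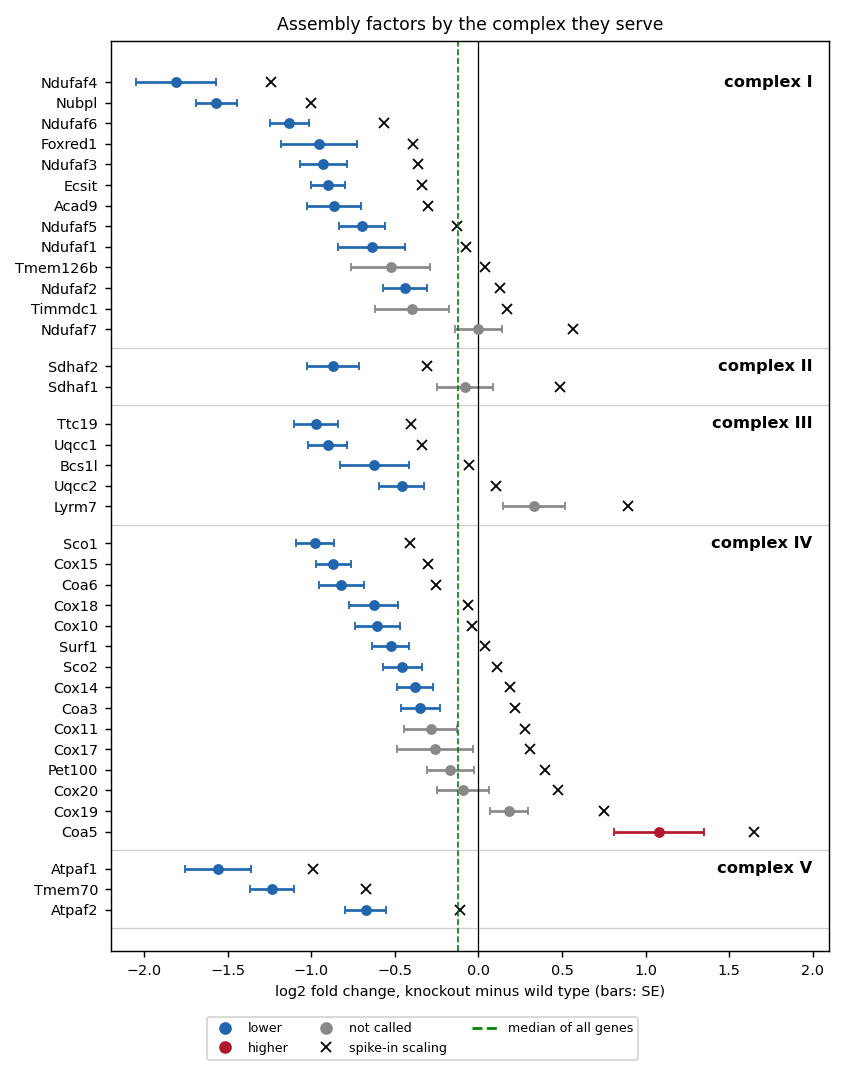
Log2 fold change of each of the 38 assembly factors, knockout minus wild type, with its standard error (circles and bars, 4 knockout and 3 wild type arrays), arranged by complex; crosses give the same value after scaling to spike-in RNA, and the dashed line is the median of all genes, -0.12. Complex I runs from -1.81 for Ndufaf4 to 0.00 for Ndufaf7, complex IV holds the only member called higher, Coa5, and all 3 factors of complex V lie left of the median of all genes.

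The size of these differences depends on what each array is scaled to. Scaling to spike-in RNA, added to each sample before labelling, raised every log2 fold change by 0.57 and moved the median of all genes to 0.44 and of the members to -0.06. On that scale 5 members were lower, against 7.45% of all genes, and 4 were higher, against 37.3% of all genes. The 5 were again Ndufaf4, Ndufaf6, Nubpl, Atpaf1 and Tmem70, and the 4 were Coa5, Ndufaf7, Lyrm7 and Cox19. The members' median minus that of all genes was -0.50 on both scales. This follows from adding the same amount to every gene and is not a separate result. With quantile normalization 21 members were lower, against 22.8% of all genes, and 2 higher, against 18.6%. The directions below are for the main scale, and 6 members called lower on it had a fold change above 0 on the spike-in scale, namely Ndufaf2, Uqcc2, Surf1, Sco2, Cox14 and Coa3.

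The cell type markers moved as well. Of 12 cardiomyocyte markers, all well above background on every array, 9 were lower and 1, Nppa, was higher, whereas 5 were lower with spike-in scaling and 5 with quantile normalization. Their summed signal was 2938 to 3654 in the knockout arrays and 5933 to 6334 in the wild type arrays. Tnnt2, cardiac troponin T, had a log2 fold change of -0.55 ± 0.13, adjusted p = 0.0132, and cardiac actin, Actc1, one of -0.35 ± 0.12, adjusted p = 0.0528. The 9 called lower ranged from Tnnt2 to Ckm, at -4.34 ± 0.20, adjusted p = 1.7e-05, and the median of the 12 was -0.79. Of 10 fibroblast markers 8 were higher, with a sum of 601 to 841 in the knockout arrays and 305 to 337 in the wild type arrays, and Col1a2, a chain of type I collagen, had a log2 fold change of 2.81 ± 0.22, adjusted p = 0.000104, against 0.41 ± 0.11, adjusted p = 0.0235 for the proteoglycan gene Dcn. Smooth muscle and pericyte markers summed to 431 to 524 in the knockout arrays and 84.4 to 97.8 in the wild type arrays, with 3 of 7 higher. The sum is mostly Acta2, smooth muscle actin, with a log2 fold change of 3.44 ± 0.14, adjusted p = 1.2e-05, while Tagln had 0.60 ± 0.36, adjusted p = 0.216. Of 9 macrophage markers tested 5 were higher. Their sums were 141 to 244 in the knockout arrays, lowest in Mutant_175, and 141 to 151 in the wild type arrays, and so overlapped. Lyz2 (0.55 ± 0.23, adjusted p = 0.0899) and Itgam (-0.34 ± 0.18, adjusted p = 0.162) did not pass the test. Endothelial sums overlapped, at 97.9 to 142 in the knockout arrays and 113 to 121 in the wild type arrays. Of 8 markers 1 was higher (Vwf, 1.14 ± 0.18, adjusted p = 0.00219), against 16.4% of all genes. Another 2 were lower, against 25.8% of all genes, namely Tek (-0.38 ± 0.11, adjusted p = 0.028) and Tie1 (-0.54 ± 0.10, adjusted p = 0.00508). The fold change was negative for 7 of the 8, and Egfl7 (-0.19 ± 0.15, adjusted p = 0.323) did not pass the test. Lymphocyte sums overlapped as well, at 4.64 to 7.81 in the knockout arrays and 3.89 to 4.65 in the wild type arrays. The highest was in Mutant_175, where Cd3e alone was at 5.57. Of the 5 tested 2 were higher, among them Cd3e (1.11 ± 0.33, adjusted p = 0.0311), and 1 was lower, Ptprc (-0.44 ± 0.14, adjusted p = 0.0361). No marker tested was at 0, but Cd3g was well above background on only 3 knockout arrays and 1 wild type array. Of the 5 lymphocyte markers tested 3 were well above background on all 7 arrays. In whole-tissue RNA, fewer heart muscle cells and less of an RNA per cell cannot be told apart, and the part of these markers in the assembly factors' values was not tested.

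Every knockout array carried the difference, and the knockout arrays varied more than the wild type arrays. The median of the members' deviations from their wild type means was -0.51, -0.63, -0.77 and -0.57 in the knockout arrays, against 0.01, -0.01 and -0.01 in the wild type arrays. The same median over all genes was -0.10, -0.15, -0.17 and -0.09 in the knockout arrays. Mutant_187 was thus lowest, and it was the lowest knockout array for 18 of 38 members (47.4%, against 35.4% of all genes). Among members called lower it was lowest for 11 of 27 (40.7%), against 44.1% of all genes called lower. The median SD of a member was 0.19 over the knockout arrays and 0.06 over the wild type arrays, on the log2 scale. It was larger among knockout arrays for 35 of 38 members (92.1%), as it was for 79.6% of all genes with a value on every array.

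**Figure D2:**
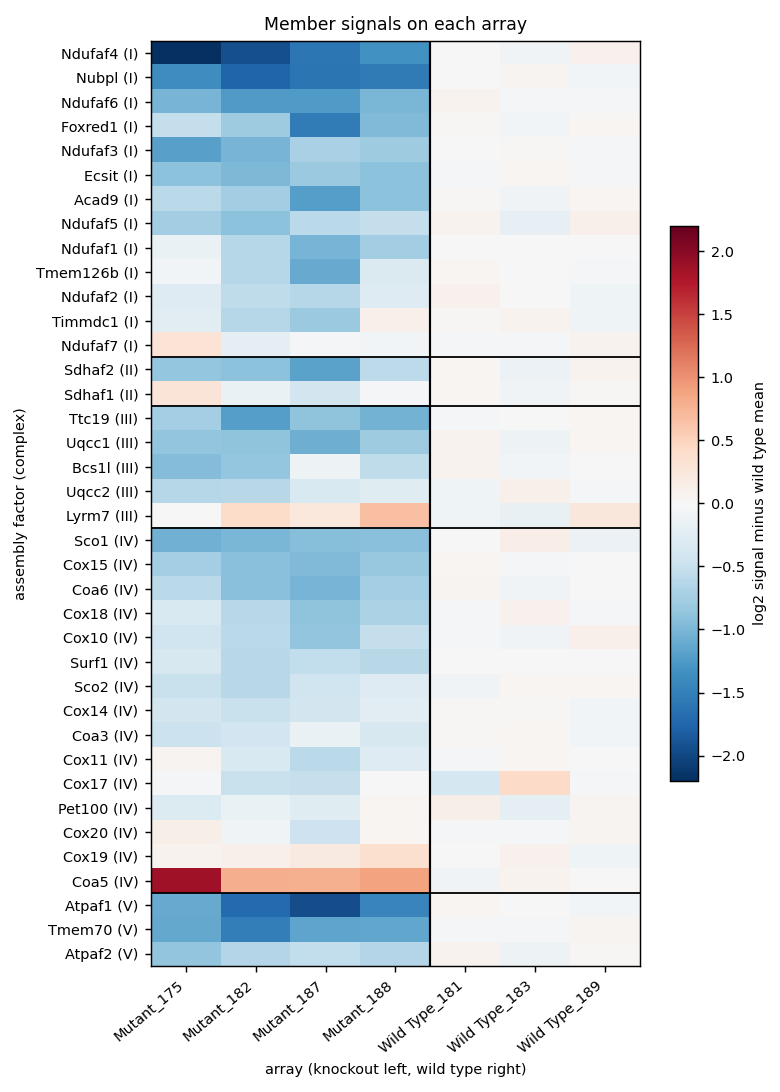
Log2 signal of each assembly factor on each array minus its wild type mean, with the 4 knockout arrays left of the line and the 3 wild type arrays right of it, grouped by complex. Blue is lower and red higher; the knockout columns are blue for most members, the row of Coa5 is red, and the rows of Ndufaf7, Sdhaf1, Cox20 and Cox19 are pale.

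Promoter sequences are shown to give the start regions of members that moved by different amounts. The RefSeq promoter table (GRCm38.p6), which covers 250 bases before to 50 after a start, held 32 of the 38 members. Both strands were searched for 4 motifs, each bound by a known regulator of nuclear genes for mitochondrial proteins. The ETS motif CCGGAAG, bound by GABPA among others, was present in 13 of 32 members (40.6%), against 14.8% of the 12861 tested genes in the table. Its share was 40.9% among members called lower (9 of 22) and 40% among the rest (4 of 10). The NRF1 motif CGCANGCG was present in 6 (18.8%, against 14.6%), the YY1 motif AAGATGG in 5 (15.6%, against 6.81%) and the motif of oestrogen-related receptors, AAGGTCA, in 0 (against 3.49%). None of the 4 was present in 11 members. The 18 ETS matches included 13 whose first base lay within 50 bases of the start, in 11 members. The median GC content was 62.0% in members and 59.3% in tested genes. A match is a description of letters and does not show binding, and these shares were not tested.

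The stretches below run from 120 bases before the start through 30 bases from it, 5′ to 3′ on the strand of the gene, with motif matches in capitals. Each overlaps no other annotated gene, unlike 17 of the 32 such stretches. Ndufaf1 and Bcs1l (lower) and Timmdc1 and Pet100 (not called) hold the ETS motif, read on the opposite strand as CTTCCGG where so written, and in Timmdc1 2 matches overlap. Uqcc2 (lower) holds the NRF1 motif before the start and the YY1 motif after it. Nubpl and Atpaf1, among the members that were lower by at least 2-fold, hold none of the 4. Ndufaf4, also among them, has an NRF1 motif 112 bases before the start. Its stretch overlaps another annotated gene and is not printed. Ndufaf6 and Tmem70 were not held by the promoter table. For Atpaf1, which has more than 1 start in the table, the first was taken.
Ndufaf1 (chr2:119662805-119662954, minus strand): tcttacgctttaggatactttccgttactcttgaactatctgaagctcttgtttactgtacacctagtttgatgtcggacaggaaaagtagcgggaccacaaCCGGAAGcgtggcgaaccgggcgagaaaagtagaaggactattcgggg
Bcs1l (chr1:74588169-74588318, plus strand): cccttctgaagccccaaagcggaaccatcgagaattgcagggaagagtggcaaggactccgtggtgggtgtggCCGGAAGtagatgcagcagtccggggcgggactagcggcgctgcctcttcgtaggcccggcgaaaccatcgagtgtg
Timmdc1 (chr16:38522634-38522783, minus strand): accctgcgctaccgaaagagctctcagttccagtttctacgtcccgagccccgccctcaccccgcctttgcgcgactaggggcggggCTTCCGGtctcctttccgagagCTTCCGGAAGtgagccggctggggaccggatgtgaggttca
Pet100 (chr8:3621431-3621580, plus strand): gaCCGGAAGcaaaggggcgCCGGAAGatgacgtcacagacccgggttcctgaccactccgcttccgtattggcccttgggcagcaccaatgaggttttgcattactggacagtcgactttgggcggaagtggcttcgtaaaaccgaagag
Uqcc2 (chr17:27133862-27134011, minus strand): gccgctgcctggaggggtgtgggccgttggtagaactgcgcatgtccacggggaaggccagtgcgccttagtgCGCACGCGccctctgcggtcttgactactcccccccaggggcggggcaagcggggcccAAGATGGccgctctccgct
Nubpl (chr12:52097626-52097775, plus strand): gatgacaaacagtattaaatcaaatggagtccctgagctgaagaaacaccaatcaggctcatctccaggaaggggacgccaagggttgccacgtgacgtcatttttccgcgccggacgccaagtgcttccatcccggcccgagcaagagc
Atpaf1 (chr4:115784708-115784857, plus strand): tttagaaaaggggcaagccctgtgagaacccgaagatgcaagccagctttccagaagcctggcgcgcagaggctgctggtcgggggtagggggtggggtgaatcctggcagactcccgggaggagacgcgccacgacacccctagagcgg

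Complex I, NADH dehydrogenase, is the largest complex and has the most members after complex IV. Of its 13 assembly factors 10 were lower and 0 higher, with a median log2 fold change of -0.87. The largest difference of any member was in Ndufaf4, which with Ndufaf3 helps build the module that binds ubiquinone. The Ndufaf4 signal was 2.81, 3.8, 4.83 and 5.75 in the knockout arrays, against 14.5, 13.7 and 15.5 in the wild type arrays. The wild type level was 3.51 times the knockout level (log2 fold change -1.81 ± 0.24, adjusted p = 0.001), and even the highest knockout array lay far below the lowest wild type array. Its probe lies at chr4:24830285-24830344 of mm9. Ndufaf3 was at 3.13, 3.49, 4.32 and 4.14 in the knockout arrays, against 7.14, 7.23 and 6.99 in the wild type arrays (log2 fold change -0.93 ± 0.14, adjusted p = 0.00188). For both, Mutant_175 was the lowest array.

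The next largest in complex I was Nubpl, which delivers iron-sulphur clusters to the peripheral arm and whose promoter stretch is printed above. It was at 1.54, 1.17, 1.3 and 1.34 in the knockout arrays, against 3.94, 4.11 and 3.8 in the wild type arrays (log2 fold change -1.57 ± 0.12, adjusted p = 0.000117; probe at chr12:53411783-53411842, mm9). Ndufaf6, a factor of early assembly, was at 3.1, 2.66, 2.66 and 3.15 in the knockout arrays, against 6.63, 6.1 and 6.23 in the wild type arrays (-1.13 ± 0.12, adjusted p = 0.000343; probe at chr4:10978306-10978365, mm9). Both showed little spread within either group, and the groups did not overlap. Ndufaf5, which hydroxylates an arginine of the subunit Ndufs7, was at 3.01, 2.75, 3.42 and 3.57 in the knockout arrays, against 5.4, 4.54 and 5.54 in the wild type arrays (-0.70 ± 0.14, adjusted p = 0.00614). Ndufaf7, a methyltransferase, did not pass the test. It was at 13.2, 9.29, 10.5 and 10.2 in the knockout arrays, against 10.5, 10.3 and 11.2 in the wild type arrays, and its groups overlapped (log2 fold change 0.00 ± 0.14, adjusted p = 0.999).

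Ndufaf1, Ecsit, Acad9, Tmem126b and Timmdc1 act together on the membrane arm. Ecsit, also known as an adaptor in Toll-like receptor signalling, was at 48.3, 45, 50.8 and 48.3 in the knockout arrays, against 88.3, 93 and 88.1 in the wild type arrays (log2 fold change -0.90 ± 0.10, adjusted p = 0.00049). Acad9, related to the acyl-CoA dehydrogenases of fatty acid oxidation, was at 3.54, 3.15, 2.29 and 2.85 in the knockout arrays, against 5.43, 5.07 and 5.48 in the wild type arrays (-0.87 ± 0.16, adjusted p = 0.00461). For Ecsit the spread within each group was small, whereas Acad9 was lowest in Mutant_187. Ndufaf1 was at 21.9, 15.7, 12 and 14.3 in the knockout arrays, against 24.1, 24.4 and 24.3 in the wild type arrays (-0.64 ± 0.20, adjusted p = 0.036), with Mutant_175 close below the wild type arrays. Tmem126b and Timmdc1 did not pass the test. Tmem126b was at 1.51, 1.02, 0.735 and 1.26 in the knockout arrays, against 1.63, 1.56 and 1.53 in the wild type arrays (-0.53 ± 0.24, adjusted p = 0.112), without overlap, and Timmdc1 had -0.40 ± 0.22, adjusted p = 0.187, with overlapping groups. A dimmer Timmdc1 probe was lower, at a log2 fold change of -0.73 (adjusted p = 0.00211 in a fit over all kept probes).

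Foxred1 and Ndufaf2 act late in complex I assembly. Foxred1, an oxidoreductase-like protein, was at 8.21, 6.88, 4.08 and 6.08 in the knockout arrays, against 12.1, 11.3 and 12.2 in the wild type arrays (log2 fold change -0.96 ± 0.23, adjusted p = 0.0131). Ndufaf2, which resembles a subunit and is replaced by it, was at 7.62, 6.29, 6.04 and 7.65 in the knockout arrays, against 9.95, 9.28 and 8.72 in the wild type arrays (-0.44 ± 0.13, adjusted p = 0.0319). Foxred1 was lowest in Mutant_187, and for both genes every knockout array lay below every wild type array.

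**Figure D3:**
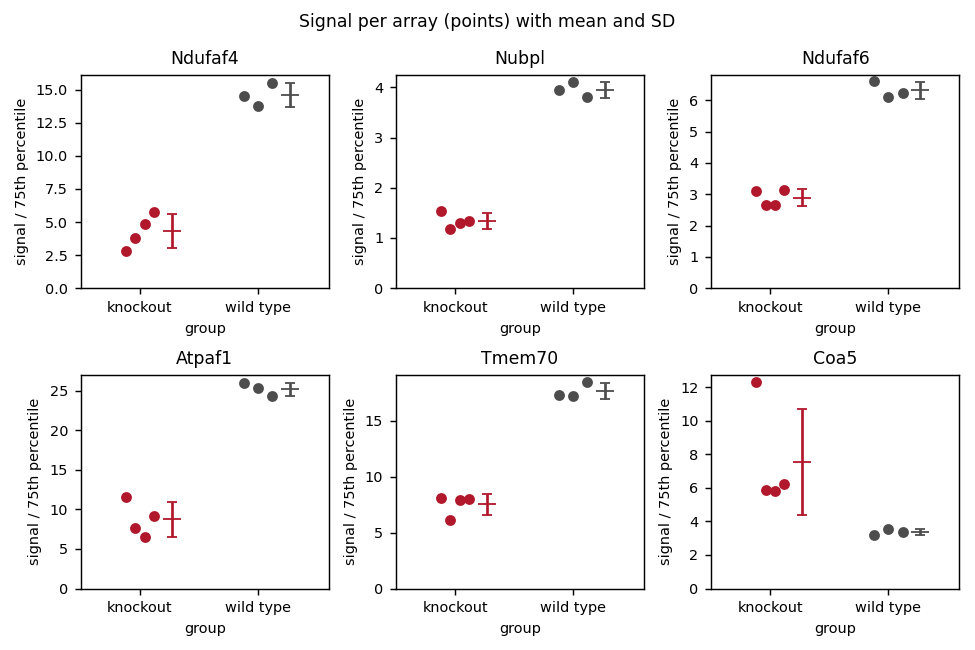
Signal on each array as a multiple of the array's 75th percentile (points), with the mean and SD of the 4 knockout arrays (left) and the 3 wild type arrays (right), for the 5 members that were lower by at least 2-fold and for Coa5. The groups do not overlap in any panel, and Mutant_175 stands above the other knockout arrays for Coa5.

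The 2 factors of complex II, succinate dehydrogenase, differed in their calls. Sdhaf2, which helps attach the flavin to Sdha, was at 2.29, 2.23, 1.84 and 2.79 in the knockout arrays, against 4.27, 3.79 and 4.38 in the wild type arrays (log2 fold change -0.87 ± 0.16, adjusted p = 0.00403). Sdhaf1, which helps insert the iron-sulphur clusters of Sdhb, overlapped between the groups (-0.08 ± 0.17, adjusted p = 0.73).

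In complex III, the cytochrome bc1 complex, 4 of 5 factors were lower, and the median of the 5 was -0.62 on the log2 scale. Uqcc1 and Uqcc2 bind newly made cytochrome b. Uqcc1 was at 11.5, 11.4, 9.96 and 12.2 in the knockout arrays, against 22.2, 19.4 and 21.6 in the wild type arrays (log2 fold change -0.90 ± 0.12, adjusted p = 0.000983). Uqcc2 was at 50.2, 51, 61.6 and 64.4 in the knockout arrays, against 73.1, 83.6 and 76.6 in the wild type arrays (-0.46 ± 0.13, adjusted p = 0.0283). The groups of both were separate. Bcs1l, the ATPase that moves the Rieske iron-sulphur protein across the inner membrane, was at 5.54, 5.94, 9.88 and 7.25 in the knockout arrays, against 11.3, 10.2 and 10.6 in the wild type arrays (-0.62 ± 0.21, adjusted p = 0.0437), and Mutant_187 came close to the wild type arrays. Ttc19, which clears fragments of the Rieske protein after it is built in, was at 8.41, 6.15, 7.65 and 6.92 in the knockout arrays, against 13.8, 14.1 and 14.6 in the wild type arrays (-0.97 ± 0.13, adjusted p = 0.00121). Lyrm7, a chaperone of the Rieske protein, did not pass the test on the probe used, with overlapping groups (0.33 ± 0.19, adjusted p = 0.189). Its probes disagreed, since a dimmer one had a log2 fold change of -1.72 (adjusted p = 0.00724 in the fit over probes) and another had -0.30 (adjusted p = 0.466), so the direction for Lyrm7 is uncertain. With quantile normalization 2 of the 5 factors were lower, and with spike-in scaling 0 were lower and 1, Lyrm7, was higher.

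Complex IV, cytochrome c oxidase, had factors that were lower, higher and not called. Of 15, 9 were lower, 1 was higher and 5 did not pass the test, with a median log2 fold change of -0.38. Cox10 and Cox15 make the heme a of this complex, and both were lower. Cox15, which forms heme a, was at 2.14, 1.9, 1.84 and 2.03 in the knockout arrays, against 3.7, 3.55 and 3.58 in the wild type arrays (log2 fold change -0.87 ± 0.10, adjusted p = 0.000687). Cox10, the preceding farnesyltransferase, was at 8.54, 7.73, 6.38 and 8.02 in the knockout arrays, against 11.3, 11.1 and 12.5 in the wild type arrays (-0.61 ± 0.13, adjusted p = 0.00927). Surf1, which acts with the heme centres of the subunit Cox1, was at 18.9, 15.8, 16.5 and 15.8 in the knockout arrays, against 24, 24.2 and 23.8 in the wild type arrays (-0.53 ± 0.11, adjusted p = 0.00762). In all 3 genes every knockout array lay below every wild type array.

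Of the 6 factors of copper delivery 3 were lower and 0 higher, with a median of -0.37. Sco1 and Sco2 bring copper to the subunit Cox2, with Coa6 as a partner. Sco1 was at 0.811, 0.837, 0.886 and 0.892 in the knockout arrays, against 1.67, 1.86 and 1.54 in the wild type arrays (log2 fold change -0.98 ± 0.11, adjusted p = 0.000562). Sco2 was at 3.78, 3.49, 3.93 and 4.37 in the knockout arrays, against 5.03, 5.46 and 5.49 in the wild type arrays (-0.46 ± 0.12, adjusted p = 0.0173), and Coa6 was at 5.02, 4.01, 3.71 and 4.5 in the knockout arrays, against 7.91, 7.2 and 7.59 in the wild type arrays (-0.82 ± 0.13, adjusted p = 0.00258). Every knockout array lay below every wild type array for all 3, and with spike-in scaling 0 of the 6 were lower and 1 was higher. Cox17, the chaperone that hands copper to the others, did not pass the test and was the most variable member among wild type arrays, at 282, 206, 202 and 286 in the knockout arrays, against 219.8, 384 and 284 in the wild type arrays (-0.26 ± 0.23, adjusted p = 0.39). Cox11, which serves the copper site of Cox1, and its partner Cox19 also did not pass, at log2 fold changes of -0.29 ± 0.16, adjusted p = 0.188, and 0.18 ± 0.12, adjusted p = 0.236.

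The remaining complex IV factors handle the subunits Cox1 and Cox2. Cox14 and Coa3 bind newly made Cox1. Cox14 was at 145, 136, 145 and 161 in the knockout arrays, against 195, 194 and 183.2 in the wild type arrays (log2 fold change -0.38 ± 0.11, adjusted p = 0.0243). Coa3 was at 45.8, 47.6, 57.8 and 49.9 in the knockout arrays, against 64.7, 65.4 and 61.2 in the wild type arrays (-0.35 ± 0.12, adjusted p = 0.0491), the weakest call among the lower members. Cox18, which moves the tail of Cox2 across the inner membrane, was at 9.71, 8.04, 6.64 and 7.53 in the knockout arrays, against 11.9, 13 and 11.8 in the wild type arrays (-0.63 ± 0.15, adjusted p = 0.0121). Cox20, a chaperone of Cox2, had -0.09 ± 0.15, adjusted p = 0.668, and Pet100, which takes part in early assembly, had -0.17 ± 0.14, adjusted p = 0.364, and the groups of both overlapped.

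Coa5 was the only member called higher. Its signal was 12.3, 5.88, 5.79 and 6.25 in the knockout arrays, against 3.2, 3.55 and 3.4 in the wild type arrays (log2 fold change 1.08 ± 0.27, adjusted p = 0.0158; probe at chr1:37477189-37477248, mm9). All knockout arrays lay above all wild type arrays, and Mutant_175 was the highest of them. Without Mutant_175 the log2 fold change was 0.82 (adjusted p = 0.000909), and without Wild Type_181 or Wild Type_189 the adjusted p was 0.0536 or 0.0503. Coa5 is needed for complex IV in humans, and its only kept probe was the one used.

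All 3 factors of complex V, the ATP synthase, were lower, and their median was -1.24 on the log2 scale. Atpaf1, the chaperone of the beta subunit, was at 11.6, 7.69, 6.51 and 9.22 in the knockout arrays, against 26, 25.3 and 24.3 in the wild type arrays (log2 fold change -1.56 ± 0.20, adjusted p = 0.000862; probe at chr4:115484465-115484523, mm9). Atpaf2, the chaperone of the alpha subunit, was at 2.92, 3.41, 3.68 and 3.4 in the knockout arrays, against 5.62, 4.95 and 5.46 in the wild type arrays (-0.67 ± 0.12, adjusted p = 0.00398). Tmem70, which helps build the ring of c subunits, was at 8.08, 6.16, 7.92 and 8.01 in the knockout arrays, against 17.3, 17.2 and 18.5 in the wild type arrays (-1.24 ± 0.13, adjusted p = 0.000405; probe at chr1:16667617-16667676, mm9). With spike-in scaling Atpaf1 and Tmem70 were still lower. Every knockout array lay below every wild type array for all 3, and Atpaf1 was lowest in Mutant_187.

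The subunits that these factors assemble were also lower, and none was called higher. In complex I 33 of 36 nuclear-encoded subunits were lower (median -0.78 on the log2 scale), and Ndufs7 (-1.22 ± 0.12, adjusted p = 0.000254) had the smallest p. In complex II 4 of 4 were lower (median -0.79), among them Sdhc (-1.12 ± 0.14, adjusted p = 0.000764) and Sdhb (-0.85 ± 0.12, adjusted p = 0.00165). In complex III 9 of 9 were lower (median -0.87), among them Uqcrc1 (-0.87 ± 0.12, adjusted p = 0.00111) and Uqcrc2 (-0.95 ± 0.14, adjusted p = 0.00163). In complex IV 11 of 13 tested were lower (median -0.75), led by Cox7a1 (-1.98 ± 0.22, adjusted p = 0.00052) and Cox8b (-1.42 ± 0.18, adjusted p = 0.000903), the subunit forms of heart and skeletal muscle. In complex V 17 of 17 were lower (median -0.69), among them Atp5c1 (-1.15 ± 0.18, adjusted p = 0.002) and Atp5f1 (-0.81 ± 0.13, adjusted p = 0.00203). By median, the factors lay below the subunits in complexes I and V and above them in complexes II, III and IV, and these differences were not tested. The counts of subunits called lower depend on the scaling. For complexes I to V they were 25, 3, 6, 5 and 5 with quantile normalization, and 4, 1, 0, 2 and 1 with spike-in scaling, and 1 subunit of complex IV was higher with either.

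**Figure D4:**
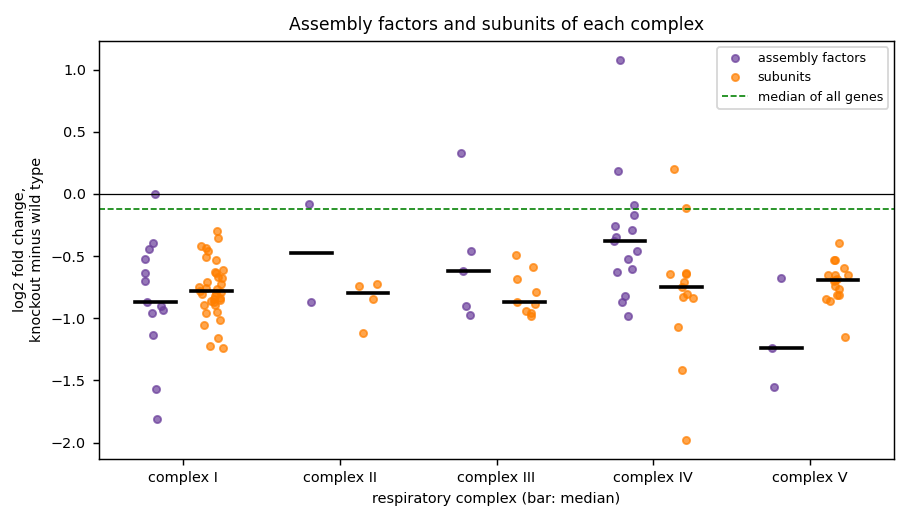
Log2 fold change, knockout minus wild type, of each assembly factor and each subunit tested, by complex, with the median as a bar; the dashed line is the median of all genes. Subunits of complex IV have a median of -0.75 and its factors one of -0.38, while in complex V the factors have -1.24 and the subunits -0.69.

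Of 22 further assembly factors tested, outside the 38, 16 were lower and 1 was higher, with a median log2 fold change of -0.55. Tmem177, which takes part in the assembly of Cox2, was at 0.492, 0.541, 0.566 and 0.575 in the knockout arrays, against 2.6, 2.57 and 2.68 in the wild type arrays (-2.27 ± 0.11, adjusted p = 1.9e-05), and Cmc2, which is needed for complex IV in yeast, had -1.20 ± 0.15, adjusted p = 0.000712. With spike-in scaling 3 of the 22 were lower and 1 higher. The factor that was higher was Coa7 (0.48 ± 0.13, adjusted p = 0.0205). Of 3 genes of import into the intermembrane space, by which small factors such as Cox17 enter, 2 were lower, Chchd4 (-0.55 ± 0.12, adjusted p = 0.00752) and its partner Aifm1 (-1.12 ± 0.19, adjusted p = 0.0033). Of 8 genes of cellular copper handling 4 were lower, against 25.8% of all genes, and 1 higher, against 16.4%. The copper pump Atp7a was higher (0.60 ± 0.11, adjusted p = 0.00431), and Slc25a3, the carrier of phosphate and copper into mitochondria, was lower (-0.75 ± 0.15, adjusted p = 0.00581). With spike-in scaling 4 of the 8 were higher, against 37.3% of all genes, and 0 lower, against 7.45%. Of the 3 import genes 0 were lower on that scale.

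Of 14 regulators of mitochondrial biogenesis 7 were lower, against 25.8% of all genes, and 1 was higher, against 16.4% of all genes, with a median log2 fold change of -0.51. Esrra, an oestrogen-related receptor that activates genes of oxidative metabolism, was at 36.9, 33.1, 33.1 and 34.2 in the knockout arrays, against 65.4, 68.2 and 67.7 in the wild type arrays (-0.97 ± 0.10, adjusted p = 0.000357). Tfb1m, which methylates mitochondrial ribosomal RNA, was at 1.73, 1.66, 1.65 and 1.62 in the knockout arrays, against 4.06, 3.66 and 3.59 in the wild type arrays (-1.18 ± 0.10, adjusted p = 0.000175). The groups of both were separate. Of the factors whose motifs were searched above, Gabpa was lower (-0.75 ± 0.20, adjusted p = 0.0216), Nrf1 was the one that was higher (0.45 ± 0.12, adjusted p = 0.0192), and Yy1 did not pass the test (-0.15 ± 0.14, adjusted p = 0.394). With spike-in scaling 2 of the 14 were lower, against 7.45% of all genes, and 3 higher, against 37.3%.

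Calls at the main setting were compared with 20 alternatives. Under all of them Ndufaf4, Ndufaf6, Nubpl, Atpaf1 and Tmem70 were lower. Another 14 members were lower under every alternative but the spike-in scaling, and 8 lost the call under some other one, namely Ndufaf1, Ndufaf2, Bcs1l, Uqcc2, Sco2, Cox14, Cox18 and Coa3. Sdhaf1, Cox17, Cox20 and Pet100 were called under no setting. In complex IV the count of factors called lower was 5 without Wild Type_183 and 6 without Wild Type_189, against 9 with all arrays. The share of all genes called lower was 17%, 17.4% and 25.8% in the same settings.

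**Figure D5:**
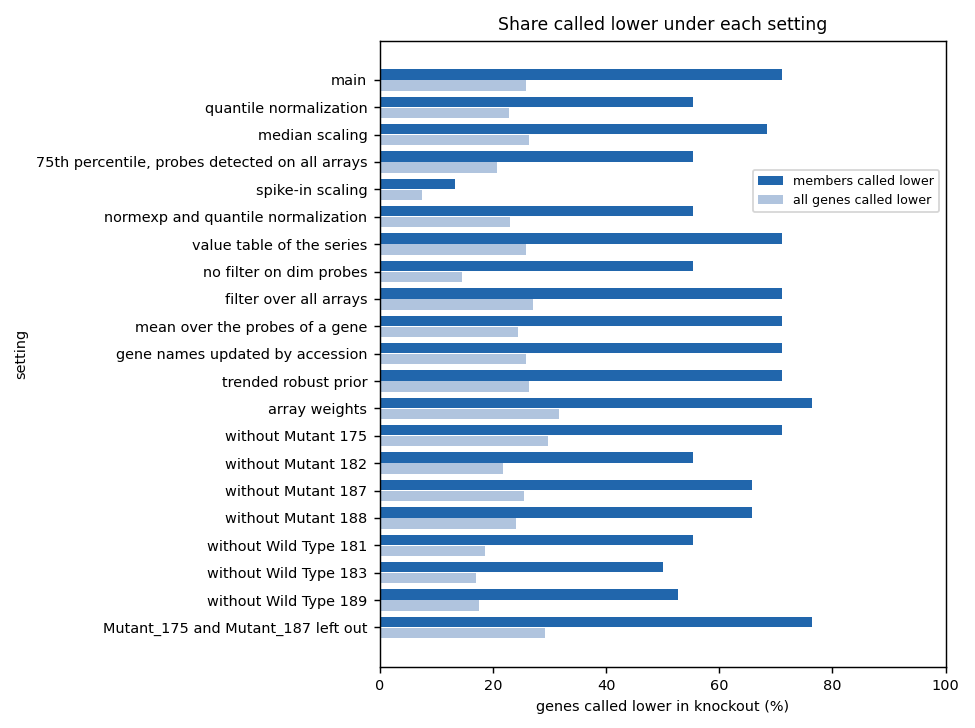
Percentage of the 38 assembly factors (dark bars) and of all genes tested (light bars) called lower in knockout under each setting, the main one at the top. The dark bar exceeds the light one at every setting, and both are shortest with spike-in scaling, where 5 members and 7.45% of all genes were lower.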

How the data were processed

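RNA of 7 heart samples, 4 knockout and 3 wild type by their labels, was labelled with Cy3 and hybridised to SurePrint G3 mouse arrays, whose probes have 60 bases. The scanner software was Feature Extraction 10.7.3.1, per the file headers, and its deposited processed signal, a linear intensity from which background had been taken off, was used with the deposited flags. Probe positions are on mm9, per the file headers. The authors' value table, deposited as well, held the same intensity and was used as an alternative. In it 99.6% of cells lay within 0.01 of the scanner value on the log2 scale. It was on a linear scale and not centred, with column medians of 65, 82.6, 80.3 and 60.8 in the knockout arrays and 47.2, 45.6 and 50.4 in the wild type arrays, in the order above.

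Each array held 59305 non-control spots, of which 82 to 146 were outliers and left out. Between 58.1% and 63.6% of spots were well above background, and the number of arrays limits the precision. Spots of a probe were averaged, and log2 signal minus the array's 75th percentile was taken, which makes that percentile equal on every array. This removes a difference shared equally by all genes, but not every difference in total signal. The summed signal of all genes tested was still 255226 to 278313 in the knockout arrays and 318467 to 335677 in the wild type arrays. A probe was kept if it was well above background on 3 or more arrays (34489 probes). Each gene was represented by the kept probe with the highest mean. limma 3.58.1 in R 4.3.3 (lmFit and eBayes, two-sided, no covariate) was fitted to 22844 genes, with pandas 2.3.3 and matplotlib 3.10.9 for tables and figures, after a test on simulated data. Spike-in scaling used 7 probes.

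Members and lists were chosen with earlier results of these data known. Every member is named, with each array's value where it was called. From other lists the 2 genes with the smallest p were named, and from marker lists the 2 with the highest mean. One gene that this rule names is not reported here. Nppa, Ckm, Csf1r, Fcgr1, Tek, Tie1, Cd3g, Coa7, Nrf1, Gabpa and Yy1 were named after their values were seen. Samples beyond these 7, protein sequences and the exon positions of probes were not used here.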

Additional observations from a re-analysis of the deposited data

Results flagged for a closer look

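In 2 of the 38 members 1 knockout array stood apart from the other 3 by more than the 95% critical value of Dixon's test for 4 samples allows, where the ratio is the gap to the nearest array over the whole range on the log2 scale. Chance alone is expected to mark about 1 in 20 such groups. For Coa5 the ratio was 0.899, with Mutant_175 high at a log2 value of 3.62 over the 75th percentile. For Tmem70 it was 0.926, with Mutant_182 low at a log2 value of 2.62. Without that array the log2 fold change was 0.82 for Coa5 and -1.14 for Tmem70, against 1.08 and -1.24 with all arrays, and both remained called.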

How the results depend on the processing

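With all arrays at the main setting 27 members were lower and 1 was higher, 10 of them lower in complex I and 9 in complex IV, with a median log2 fold change of -0.62. Spike-in scaling moved these values most, to 5 lower and 4 higher, with 3 lower in complex I and 0 in complex IV and a median of -0.059, and turned 6 lower members to 0.13 (Ndufaf2), 0.11 (Uqcc2), 0.041 (Surf1), 0.11 (Sco2), 0.19 (Cox14) and 0.22 (Coa3). The scaling itself adds 0.57 to every log2 fold change. Quantile normalization gave 2 higher (18.6% of all genes) and a median of -0.48. Normexp with quantile normalization gave 2 higher (19.1% of all genes) and -0.46, and the percentile over probes detected on all arrays a median of -0.51. With Mutant_175 and Mutant_187 left out 2 were higher, against 18.7% of all genes. Leaving out 1 array at a time gave 19 to 27 lower, against 17% to 29.7% of all genes. It gave 0 to 1 higher (0 without Wild Type_181 or Wild Type_189), against 11.9% to 19.7% of all genes. In complex I 8 to 11 were lower and in complex IV 5 to 9 (5 without Wild Type_183), and the median was -0.67 to -0.53. Without Wild Type_183 the fewest members and the fewest of all genes were lower. Of 760 comparisons of a member with an alternative, 78 lost the call but kept the sign, and 14 gained a call. In 6 more, all with spike-in scaling, a called member turned sign and lost the call as well. The remaining 662 kept their call status, but in 25 of them the sign of a member not called turned, as for Lyrm7 with the mean over its probes (-0.56). Ndufaf7, Tmem126b, Timmdc1, Lyrm7, Cox11 and Cox19 were called under at least 1 alternative. The cause of these changes was not tested beyond what the scalings add. No paired analysis was possible because no sample number is shared between the groups. With 3 wild type arrays, small differences such as that of Coa3 cannot be settled.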

Other observations

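Other probes of the members give a second reading of the same RNA. Of 81 probes 72 were kept, and in a fit over all kept probes 47 were lower, 1 was higher and 24 were not called. The shares called over all 34489 kept probes are not given here, so these counts have no background beside them. Of the 17 lower members with more than 1 kept probe, 15 had another probe lower, and in 15 all other probes had the same sign. The further probes of Cox14 (-0.33, adjusted p = 0.0527) and Cox18 (-0.27, adjusted p = 0.0889) were not called. The next brightest Uqcc1 probe had -0.40 (adjusted p = 0.0316), against -0.90 for the one used. No member had probes called in opposite directions. The exceptions in sign were Acad9, with a further probe at 0.07 (adjusted p = 0.803), and Ndufaf6, with a dim probe at 0.48 (adjusted p = 0.13). Coa3, with 1 probe, had an adjusted p of 0.0547 in that fit.

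The knockout arrays had the same order by remaining Brg1 signal and by the median shift of all members. The array with the most Brg1 signal had the lowest median. This order was not particular to the members, and it did not hold for the factors of every complex. Smarca4 was at 5.87, 8.25, 10.3 and 14.9 in Mutant_175, Mutant_188, Mutant_182 and Mutant_187, and the median deviation of the members from wild type was -0.51, -0.57, -0.63 and -0.77 in the same arrays. The factors of complexes I and II had this order, and those of complexes III, IV and V did not. Complex III factors were at -0.75, -0.56, -0.85 and -0.33, so that Mutant_187 was the least shifted. The subunits of complexes I to IV had the same order, with complex I subunits at -0.59, -0.64, -0.90 and -0.97. Complex V subunits did not, at -0.66, -0.56, -0.78 and -0.92. The median of all genes was -0.10, -0.09, -0.15 and -0.17. The summed cardiomyocyte markers were 3277, 3654, 2988 and 2938. With 4 arrays no correlation was computed, and this order was noticed after the values were seen.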
